A study of Mus musculus with 12 samples.

Results

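The 9 genes described here are markers of endothelial cells, the cells that line the blood vessels of the liver. They are Stab1, Stab2, Clec4g, Kdr, Tek, Tie1, Pecam1, Cdh5 and Eng, taken by gene symbol from the table of mRNA signal. All 9 had a row among the 20069 genes of the table, and all 9 were among the 10198 genes called expressed, that is, with more than 8 reads per base pair of exon (rpbp, a mean coverage per base) in at least 1 sample.

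Poly(A) RNA was sequenced from whole livers of wild-type C57BL/6 mice, adult males of 3 to 6 months that had been kept for at least 2 weeks under 12 hr of light and 12 hr of darkness (LD12:12). The 12 samples were taken every 4 hr from ZT2 to ZT22 (zeitgeber time, with lights on at ZT0 and off at ZT12), and each of 2 series held 1 sample per time point. The labels number the 2 samples of a time point but do not say how many animals stand behind each, so that the p-values given here measure the spread between these samples. A whole liver is mostly hepatocytes, and the hepatocyte markers listed had means from 474 rpbp (Hnf4a) to 97960 rpbp (Alb). In such bulk RNA fewer cells of a type and less RNA per cell cannot be told apart.

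Most liver endothelium lines the sinusoids, the thin-walled capillaries between the plates of hepatocytes. Liver sinusoidal endothelial cells have open pores (fenestrae), lack a regular basement membrane, and clear waste macromolecules from the blood through scavenger and lectin receptors. Like other endothelial cells they also depend on the vascular receptor tyrosine kinases for growth and survival, and on junction proteins that hold neighbouring cells together. The members were ordered by these roles.

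The first 3 members are endocytic receptors typical of sinusoidal endothelium. Stab1 and Stab2 encode stabilin-1 and stabilin-2, large scavenger receptors that take up hyaluronan, modified proteins and other waste. Clec4g encodes LSECtin, a C-type lectin that binds glycans. Stab1 is located at chr14:31952199-31981827 of mm9 on the minus strand, Stab2 at chr10:86303943-86470770 on the minus strand, and Clec4g at chr8:3707064-3720651 on the minus strand. The next 3 are receptor tyrosine kinases. Kdr (VEGF receptor 2, the main signalling receptor of VEGF-A) lies at chr5:76328852-76374483 on the minus strand, Tek (Tie2, the receptor of the angiopoietins) at chr4:94405980-94541667 on the plus strand, and Tie1 (a relative of Tie2 with no angiopoietin of its own, which modulates Tie2) at chr4:118143796-118162666 on the minus strand. The last 3 are surface proteins of the junctions or of TGF-beta signalling. Pecam1 (CD31, a homophilic adhesion molecule) lies at chr11:106515531-106611942 on the minus strand, Cdh5 (VE-cadherin, the cadherin of endothelial adherens junctions) at chr8:106625525-106668402 on the plus strand, and Eng (endoglin, a co-receptor of BMP9 and TGF-beta) at chr2:32502115-32538189 on the plus strand. The signal covers the exons of each gene, joined over all isoforms, and counts both strands. In the annotation of mm9, 390 bp of the Clec4g exons (15.8%) are shared with the pseudogene Gm9814 on the same strand and 146 bp with the antisense transcript Gm16553, so that the Clec4g value may hold reads of either. The Eng exons share 124 bp with Ak1 and 61 bp with Fpgs, the Stab1 exons 109 bp with Nt5dc2, and the Stab2 exons 141 bp with Gm16268. Kdr, Tek, Tie1, Pecam1 and Cdh5 share no exon bases with another annotated gene.

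The 250 bases before the annotated start were read for the 7 members with an entry in the RefSeq promoter table (GRCm38.p6). Pecam1 and Cdh5 were not among them. The 3 receptor kinases are printed because Tie1 was the member called rhythmic, Kdr was the member nearest to the threshold in the F-test of time points, and Tek is the closest relative of Tie1. Capitals mark GGAAG, the core letters of the element bound by ETS factors, a family that includes regulators of endothelial genes, on either strand (CTTCC on the strand shown).
Tie1, chr4:118489850-118490099, minus strand: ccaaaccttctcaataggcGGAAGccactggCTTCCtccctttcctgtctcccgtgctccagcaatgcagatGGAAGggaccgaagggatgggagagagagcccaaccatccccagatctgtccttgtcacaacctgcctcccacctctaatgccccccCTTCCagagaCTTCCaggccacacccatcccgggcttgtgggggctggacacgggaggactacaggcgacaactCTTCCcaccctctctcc
Kdr, chr5:75978456-75978705, minus strand: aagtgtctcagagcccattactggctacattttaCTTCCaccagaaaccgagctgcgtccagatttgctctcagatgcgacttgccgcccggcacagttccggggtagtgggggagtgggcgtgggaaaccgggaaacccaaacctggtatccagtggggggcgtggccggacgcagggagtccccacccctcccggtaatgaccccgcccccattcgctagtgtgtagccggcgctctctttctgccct
Tek, chr4:94739039-94739288, plus strand: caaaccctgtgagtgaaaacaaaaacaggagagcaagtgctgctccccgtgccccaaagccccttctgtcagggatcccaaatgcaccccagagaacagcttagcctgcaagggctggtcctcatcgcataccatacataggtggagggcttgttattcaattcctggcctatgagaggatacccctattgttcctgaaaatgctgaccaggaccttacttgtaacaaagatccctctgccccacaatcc

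Tie1 held 6 matches to GGAAG, and 0.344% of the 32851 promoters of the table held as many. Clec4g and Stab1 held 3 each, Eng 2, Kdr and Stab2 1 each, and Tek held none. In all, 6 of the 7 members held at least 1 match, against 64.1% of all promoters. CACGTG, the E-box bound by the clock factors CLK and BMAL1, was found in 0 of the 7, against 6.02% of all promoters. A match says only that the letters are in the window and is no binding site.

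The members were detected at a wide range of levels, from the lectin receptor Clec4g at the top to the angiopoietin receptor Tek and its relative Tie1 at the bottom. As rpbp is coverage per exon base, levels were set side by side between genes. The exons are joined over all isoforms, both strands are counted and only unique matches are kept. A gene's value can therefore be off by a factor that is the same in all samples. Clec4g was the highest, with 121 ± 10.8 rpbp (mean ± SD, n = 12), above 87.0% of expressed genes. Eng followed with 60.9 ± 3.31 rpbp. Cdh5 had 25.2 ± 2.44 rpbp and Kdr 24.8 ± 2.73 rpbp, which is close to the median of all expressed genes (22.9 rpbp). Stab2 had 16.9 ± 1.12 rpbp, Pecam1 13.6 ± 1.98 rpbp and Stab1 12.2 ± 1.54 rpbp. Tie1, with 9.32 ± 1.49 rpbp, and Tek, with 9.27 ± 1.10 rpbp, were the lowest, above 8 rpbp in 10 and 11 of the 12 samples respectively.

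**Figure D1:**
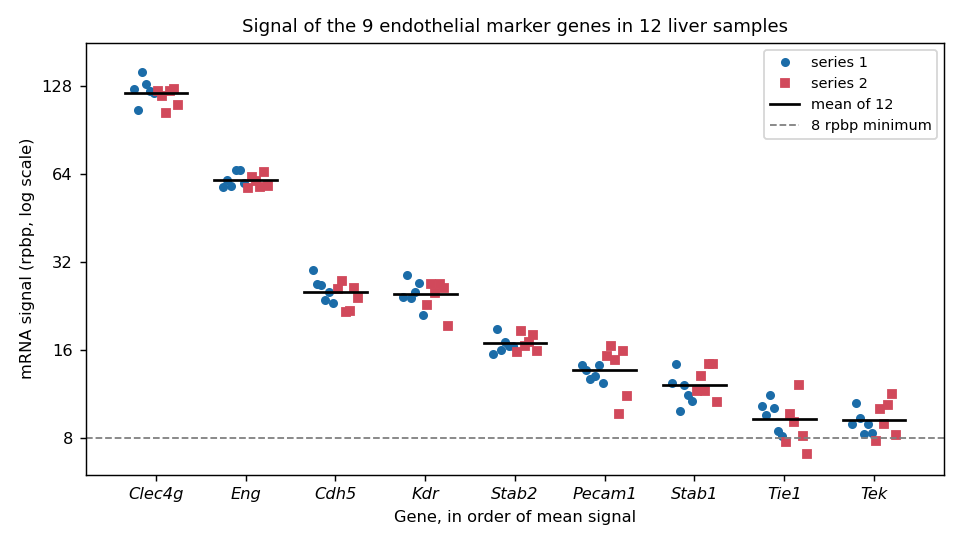
mRNA signal (rpbp, log scale) of the 9 genes in the 12 liver samples, in order of the mean. Circles are series 1, squares are series 2, the bar is the mean of 12 samples and the dashed line is the expression minimum of 8 rpbp. Clec4g and Eng stand clear of the other members, whereas Cdh5 and Kdr overlap, as do Tie1 and Tek.

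Neighbours in this order were compared within samples (exact sign-flip permutation test, two-sided, adjusted over 8 pairs). The test asks whether a difference in signal is steady over the samples, and it cannot see such a fixed factor. Clec4g was 1.98-fold above Eng in 12 of 12 samples, Eng 2.42-fold above Cdh5 in 12 of 12, Kdr 1.47-fold above Stab2 in 12 of 12, and Stab2 1.25-fold above Pecam1 in 12 of 12 (each adjusted p = 0.000977). Stab1 was 1.32-fold above Tie1 in 11 of 12 samples (adjusted p = 0.00156). The other 3 pairs of neighbours did not differ beyond their spread. Cdh5 was above Kdr in 6 of 12 samples (adjusted p = 0.756), Pecam1 above Stab1 in 10 of 12 (adjusted p = 0.0957), and Tie1 above Tek in 5 of 12 (adjusted p = 0.992).

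Several members were steady across the 12 samples. The coefficient of variation of Eng was 5.43%, lower than that of all but 1.31% of expressed genes, and Eng ranged from 57.4 to 66.1 rpbp with a median of 60.1 rpbp. Stab2 had a coefficient of variation of 6.60% (3.93% of expressed genes were lower) and ranged from 15.6 to 18.8 rpbp with a median of 16.6 rpbp. Clec4g followed with 8.91% and Cdh5 with 9.68%. At the other end were Pecam1 with 14.5% and Tie1 with 16.02%. The median over the 9 members was 10.98%, against 14.9% over all expressed genes. The spread between the 2 samples of a time point was less different, with a median SD of 10.3% of the mean for the members and 10.8% for all expressed genes.

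The central question of such a time course is whether the mRNA level of a gene follows the time of day. The measure used was F24, the share of the variance of the 12 values taken by a 24 hr cosine, and a gene was called rhythmic with an exact permutation p below 0.05, F24 above 0.45 and an amplitude (highest over lowest value) above 1.5. Tie1 met these criteria and the other 8 members did not, while 19.1% of all expressed genes did. With p-values adjusted over all 10198 expressed genes in place of the raw p, 0 of 9 members were called, against 4.97% of all expressed genes. The median F24 of the members was 0.140, against 0.310 over all expressed genes, and their median amplitude 1.45, against 1.64.

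Tie1 had in series 1 a signal of 10.3 rpbp at ZT2, 9.64 at ZT6, 11.2 at ZT10, 10.1 at ZT14, 8.48 at ZT18 and 8.12 at ZT22. In series 2 it had 7.76 rpbp at ZT2, 9.68 at ZT6, 9.12 at ZT10, 12.2 at ZT14, 8.16 at ZT18 and 7.08 at ZT22. Both series were low at ZT18 and ZT22. Series 1 was highest at ZT10 and series 2 at ZT14, and the series differed by more than 2 rpbp at ZT2, ZT10 and ZT14. F24 was 0.517 with a peak at 10.6 hr and an amplitude of 1.72 (exact permutation p = 0.0401, adjusted p = 0.171). The fitted 24 hr curve of Tie1 rose 1.33-fold from trough to peak on the log2(rpbp + 1) scale, with an upper 95% limit of 1.62-fold. The call was narrow, since it was lost without any of 9 of the 12 samples in turn (F24 from 0.424 to 0.696 and p from 0.00880 to 0.110 over the 12 fits), and it was also lost when the amplitude was taken from the time point means. Each series alone gave F24 of 0.701 (exact p = 0.167) and 0.635 (exact p = 0.200), where 6 values cannot give a p below 0.0167.

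**Figure D2:**
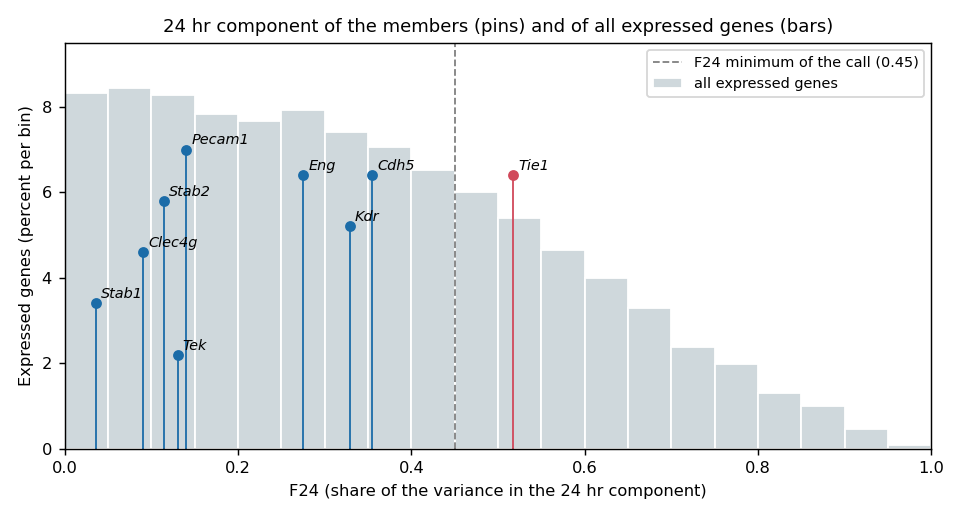
F24 of the 9 members (pins, of arbitrary height) over the distribution of F24 among the 10198 expressed genes (bars, percent of genes per bin of 0.05). Tie1 (red) is the only member above the minimum of 0.45 (dashed line), whereas the other 8 lie between 0.0358 and 0.354.

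The other 2 receptor kinases did not pass the call. Kdr had in series 1 a signal of 24.3 rpbp at ZT2, 28.9 at ZT6, 24.1 at ZT10, 25.3 at ZT14, 27.1 at ZT18 and 21.04 at ZT22. In series 2 it had 22.8 rpbp at ZT2, 26.9 at ZT6, 25.04 at ZT10, 27.0 at ZT14, 26.2 at ZT18 and 19.4 at ZT22. The 2 ZT22 samples were the lowest of the 12, and the series differed little, with an SD between samples of a time point of 4.29% of the mean. F24 was 0.329 (exact permutation p = 0.170, adjusted p = 0.356) with an amplitude of 1.49. Tek ranged from 7.80 to 11.4 rpbp with a median of 8.96 rpbp, and its F24 was 0.130 (exact permutation p = 0.526, adjusted p = 0.676). With each sample left out in turn, F24 of Kdr ran from 0.194 (without series 2 at ZT22) to 0.457 (without series 1 at ZT10), and that of Tek from 0.0708 (without series 2 at ZT2) to 0.351 (without series 2 at ZT18), with no call in any of the 12 fits.

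None of the junction and co-receptor genes passed the call. Cdh5 had in series 1 a signal of 30.0 rpbp at ZT2, 26.9 at ZT6, 26.8 at ZT10, 23.8 at ZT14, 25.2 at ZT18 and 23.2 at ZT22. In series 2 it had 25.8 rpbp at ZT2, 27.5 at ZT6, 21.7 at ZT10, 21.8 at ZT14, 26.0 at ZT18 and 24.1 at ZT22. Both series were high at ZT6 and low at ZT14, but they differed at ZT10. F24 was 0.354 (exact permutation p = 0.141, adjusted p = 0.324) and the amplitude 1.39. Eng had an F24 of 0.275 (exact permutation p = 0.235, adjusted p = 0.422) within an amplitude of 1.15. These values moved with the processing. With median-of-ratios size factors F24 was 0.458 for Eng (exact permutation p = 0.0682) and 0.266 for Cdh5 (exact permutation p = 0.246), and without the series 2 sample of ZT14 it was 0.549 for Eng (permutation p = 0.0541) and 0.260 for Cdh5.

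Pecam1 had an amplitude of 1.71 but an F24 of only 0.140 (exact permutation p = 0.508, adjusted p = 0.661). Its lowest value, 9.68 rpbp, was in series 2 at ZT14, where series 1 had 13.0 rpbp. Its highest value, 16.6 rpbp, was in series 2 at ZT6, where series 1 had 13.7 rpbp. With each sample left out in turn, the F24 of Pecam1 ran from 0.0594 to 0.365 and Pecam1 was not called in any of the 12 fits. The SD of Pecam1 was 0.779 rpbp in series 1 and 2.80 rpbp in series 2 (n = 6 each).

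None of the scavenger and lectin receptors was called rhythmic. Stab1 ranged from 9.92 to 14.4 rpbp with a median of 11.9 rpbp and had an F24 of 0.0358 (exact permutation p = 0.840, adjusted p = 0.897). Stab2 had an F24 of 0.114 (exact permutation p = 0.568, adjusted p = 0.708). Clec4g had an F24 of 0.0904 (exact permutation p = 0.656, adjusted p = 0.771). With each sample left out in turn, F24 reached at most 0.231 for Stab1, 0.251 for Stab2 and 0.246 for Clec4g. The 2 ZT10 samples of Clec4g were the extremes of all 12, with 143 rpbp in series 1 and 104 rpbp in series 2. The upper 95% limits of the fitted 24 hr change were 1.32-fold for Stab1, 1.22-fold for Stab2, 1.28-fold for Clec4g and 1.22-fold for Eng on the log2(rpbp + 1) scale. They were wider for the other members not called, with 1.35-fold for Tek, 1.36-fold for Cdh5, 1.43-fold for Kdr and 1.48-fold for Pecam1. Larger 24 hr changes lay outside the intervals.

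**Figure D3:**
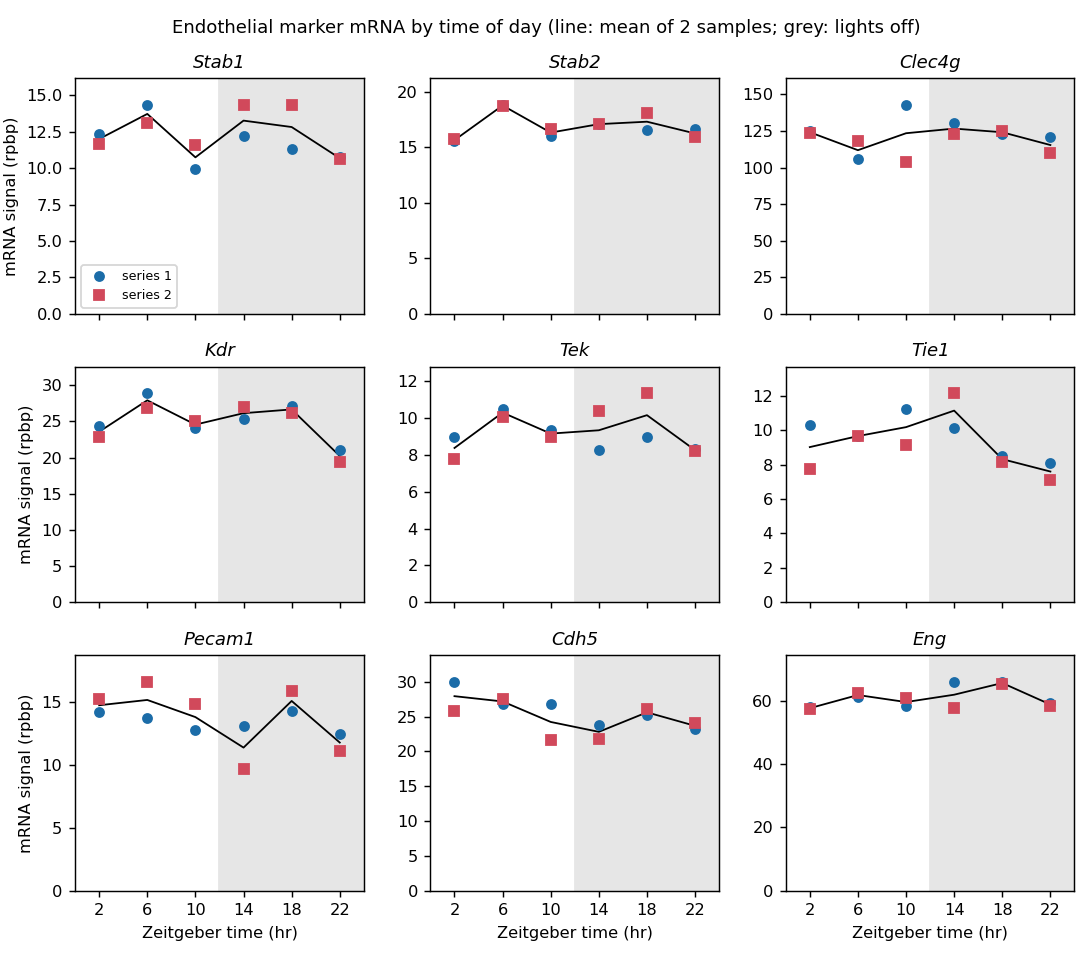
mRNA signal (rpbp) of each member against zeitgeber time (hr), with a separate axis for each gene that starts at 0. Circles are series 1, squares are series 2, the line joins the means of the 2 samples of a time point, and grey marks the hours of darkness. Both ZT22 samples of Kdr lie below its other 10 samples, and the 2 ZT10 samples of Clec4g are 143 and 104 rpbp.

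Because a gene can differ between time points without following a cosine, the 6 time points were also compared with a limma F-test on log2(rpbp + 1). None of the 9 members passed an adjusted p of 0.05, against 17.6% of all expressed genes. Kdr was the nearest, with an unadjusted p of 0.0116 and an adjusted p of 0.0579, and it was the only member with an unadjusted p below 0.05. The mean of Kdr was highest at ZT6 and lowest at ZT22, a difference of 0.45 on the log2 scale. With an expression minimum of 16 rpbp, the limma fit gave Kdr an unadjusted p of 0.00859 and an adjusted p of 0.0415, and the adjusted p over all alternatives ran from 0.0415 to 0.174. The next members were Tie1 (adjusted p = 0.194), Pecam1 (adjusted p = 0.219) and Stab1 (adjusted p = 0.264), and the adjusted p of the other 5 ran up to 0.826 for Clec4g.

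The members were also compared with their own medians. In both ZT22 samples none of the 9 members was above its own median over the 12 samples, while 26.8% of all expressed genes were likewise not above theirs in either sample. The mean of the 9 centred log2 values was -0.11 in series 1 and -0.18 in series 2 at ZT22, the lowest 2 of the 12 samples, which corresponds to -7.06% and -11.6% relative to the members' own means. At ZT6, 7 and 8 of the 9 members were above their median in series 1 and series 2, and 7 of 9 were above it in both, against 35.7% of all expressed genes. Means were highest at ZT6 for 5 of 9 members, against 20.3% of all expressed genes, and lowest at ZT22 for 4 of 9, Stab1, Kdr, Tek and Tie1, against 10.7%. The means of Stab2 and Eng were lowest at ZT2, that of Clec4g at ZT6 and those of Pecam1 and Cdh5 at ZT14, and Stab2 equalled its median in series 1 at ZT22. In series 2, 8 of 9 members were also above their median at ZT18, where series 1 had 4 of 9. These time points were singled out after the values were seen, and the counts are descriptions without a test.

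**Figure D4:**
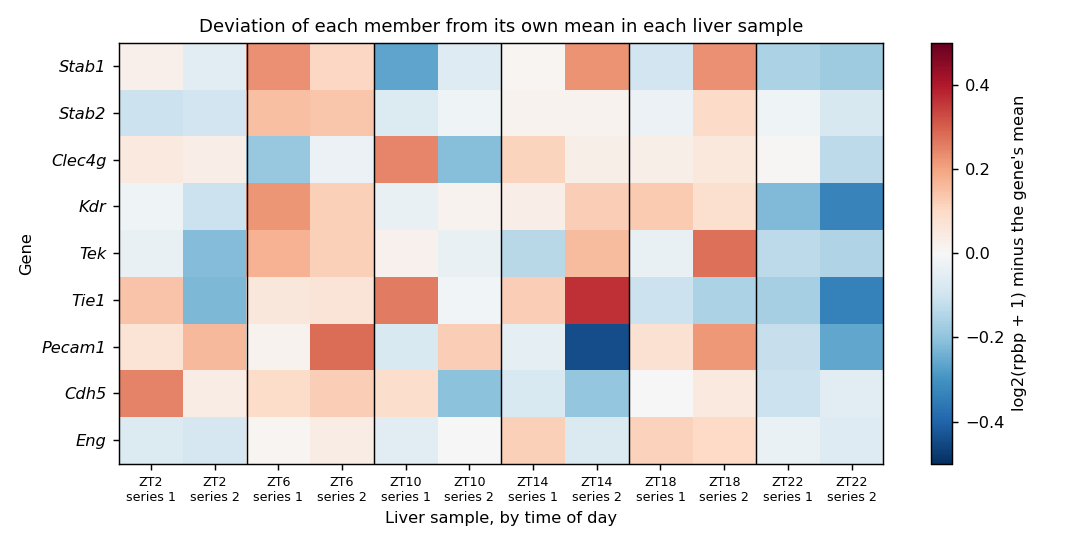
Deviation of each member from its own mean, as log2(rpbp + 1), in the 12 liver samples ordered by zeitgeber time with series 1 and series 2 side by side. Both ZT22 columns are blue or near white for all 9 genes, whereas both ZT6 columns are mostly red, with Clec4g as the exception.

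Kdr, Tek and Tie1, with Kdr as the most abundant of the 3, summed to 37.5 and 34.7 rpbp in the 2 ZT22 samples and to between 38.4 and 49.6 rpbp in the other 10. By the mean of their centred log2 values, which weights the 3 genes alike, the ZT22 samples had -0.17 and -0.27, and the series 2 sample of ZT2 had -0.18. The scavenger and lectin receptors summed to 148 and 136 rpbp at ZT22, within the 132 to 169 rpbp of the other samples, and the junction and co-receptor genes to 95.1 and 93.5 rpbp, within 89.3 to 107 rpbp. Scaling by median-of-ratios size factors in place of the deposited scaling left the count of members not above their median at ZT22 at 9 of 9. The factors ran only from 0.971 to 1.04, with 1.003 and 0.995 for the ZT22 samples, so that this scaling could change little.

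Other endothelial markers were listed to see whether they moved the same way. The counts that follow stand against 26.8% of all expressed genes that were not above their median in either ZT22 sample. The lists are short, and no count was tested against that share. Of 10 expressed sinusoidal markers, 5 were not above their median in either ZT22 sample, and of 14 expressed general endothelial markers 8 were not, while all 3 expressed genes of the central and portal vessels were above theirs in at least 1 of the 2 (0 of 3). The 10 sinusoidal markers summed to 428 and 377 rpbp at ZT22 and to between 422 and 655 rpbp in the other samples, a sum in which Cd36, a fatty acid translocase that hepatocytes can also express, alone ranged from 17.5 to 246 rpbp. Without Cd36, left out after the values were seen, the sums were 383 and 353 rpbp at ZT22 and 396 to 455 rpbp elsewhere. The 14 general markers summed to 213 and 186 rpbp at ZT22 and to 216 to 240 rpbp elsewhere. Markers of other liver cells were counted in the same way. The count was 1 of 10 for Kupffer cell markers, whose sum was 632 and 805 rpbp at ZT22 and 539 to 1043 rpbp elsewhere. It was 2 of 7 for stellate cell markers (407 and 387 rpbp at ZT22, 341 to 454 rpbp elsewhere) and 1 of 7 for hepatocyte markers. It was 0 of 2 for the expressed cholangiocyte markers Sox9 and Spp1. The mean of their centred log2 values had the other sign, at 0.40 and 0.78 in the 2 ZT22 samples and -0.40 and -0.77 in the 2 ZT6 samples. The count was also 0 of 2 for the expressed blood cell genes, of which the haemoglobin gene Hbb-b1 ranged from 63.3 to 598 rpbp over the 12 samples. The summed blood signal was 66.5 and 244 rpbp at ZT22 and 115 to 600.4 rpbp elsewhere, so that the series 1 sample of ZT22 was the lowest of the 12. The part of these other cell types in the members' values was not tested.

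In rhythm calls, the other endothelial markers stood near the background of 19.1%. Of the 10 expressed sinusoidal markers, 1 was rhythmic, Aqp1 (aquaporin-1, a water channel), with a mean of 144 rpbp, an F24 of 0.610 and an adjusted p of 0.0978. Ehd3, an endocytic recycling protein, had an F24 of 0.501 but an amplitude of 1.41. Cd36 had an F24 of 0.343 and was not called. Of the 14 expressed general markers, 4 were rhythmic. Clec14a, a C-type lectin of vessel walls, had an F24 of 0.603, and Mmrn2, an extracellular partner of Clec14a, had an F24 of 0.587. Mmrn2 was the only general marker to pass the F-test of time points (limma, adjusted p = 0.0129), against 17.6% of all expressed genes. The other 2, named after their values were seen, were Ptprb (F24 of 0.528) and Gpr116 (F24 of 0.569). Ptprb passed narrowly, with an amplitude of 1.501 against the minimum of 1.5 (exact permutation p = 0.0433, adjusted p = 0.176). None of the endothelial genes of these 2 lists was called with adjusted p-values, against 4.97% of all expressed genes.

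The levels of the general markers also differed. Plvap, the diaphragm protein of fenestrae and vesicles, had 43.7 rpbp and Egfl7, a secreted endothelial factor, 20.6 rpbp, whereas 7 of the 21 general markers with a row were under the expression minimum. They were Flt1 with 4.51 rpbp, Erg with 5.98, Nos3 with 2.39, Sox17 with 1.16, Vwf with 1.17, Cd34 with 1.31 and Emcn with 1.59 rpbp, given in full after their values were seen. The tight junction gene Cldn5, also picked afterwards, had 15.1 rpbp. Genes of the central and portal vessels were low as well, with 3 of 9 expressed (Wnt2, 5.96 rpbp, Rspo3, 7.07 rpbp, and Ltbp4, 14.7 rpbp). None of the 3 was rhythmic, against 19.1% of all expressed genes.

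The ligands and partners of the members were taken from lists of their pathways. For Kdr, the ligand gene Vegfa had 89.9 rpbp and an F24 of 0.0818 (exact permutation p = 0.668, adjusted p = 0.779). Of 7 expressed VEGF pathway genes none was rhythmic, against 19.1% of all expressed genes. Plcg1, the phospholipase that Kdr activates, had an F24 of 0.687 but an amplitude of 1.34. The limma F-test of time points called 2 of the 7, against 17.6% of all expressed genes. They were Nrp1 (neuropilin-1, a co-receptor, adjusted p = 0.0143) and Vegfb (a ligand of the related receptor Flt1, adjusted p = 0.0163). Vegfb was named after its values were seen.

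For Tek and Tie1, the ligand genes Angpt1 and Angpt2 were under the expression minimum, with 0.587 and 1.22 rpbp. Of 6 expressed genes of the list, 3 were rhythmic, against 19.1% of all expressed genes. With adjusted p-values 1 of them, Foxo1, was called (F24 of 0.790, adjusted p = 0.0204), against 4.97% of all expressed genes. Foxo1 is a transcription factor that Tie2 signalling restrains through AKT and that is also a target of insulin in hepatocytes. The other 2 were Ptprb, the phosphatase that dephosphorylates Tie2, and Angptl4, an inhibitor of lipoprotein lipase that does not bind Tie2, both named after their values were seen. Ptprb is also counted among the general markers above. Itgb1, integrin beta 1, had an F24 of 0.798 (adjusted p = 0.0318) within an amplitude of 1.20.

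For Eng, 1 of 12 expressed pathway genes was rhythmic, against 19.1% of all expressed genes. Tgfbr2, the type II receptor of TGF-beta, had a mean of 24.7 rpbp, an F24 of 0.877 with an amplitude of 1.67, and an adjusted p of 0.0174, and it also passed the F-test of time points (limma, adjusted p = 0.0302). The BMP target gene Id3 had 149 rpbp, an F24 of 0.395 and an adjusted p of 0.0198 in the limma F-test. Smad4, the common mediator of the pathway, had 27.7 rpbp and an F24 of 0.188. For Cdh5 and Pecam1, none of 8 expressed partners was rhythmic, against the same 19.1%. Ctnnb1, beta-catenin, had 193 rpbp and an F24 of 0.544 with an amplitude of 1.37, and Krit1, a junction stabiliser, had an F24 of 0.661 with an amplitude of 1.47. Most of these partners are expressed in hepatocytes as well, so that their signal in whole liver cannot be assigned to endothelial cells.

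Light (ZT2, ZT6 and ZT10) was compared with dark (ZT14, ZT18 and ZT22), 6 samples each, with an exact permutation test. None of the 9 members passed an adjusted p of 0.05, nor did any other gene, since the background was 0% of 10198 genes. At an unadjusted p under 0.05, 1289 genes differed but no member did, limma called 36 genes and no member, and the smallest p the test can give is 0.00216. Pecam1 showed the largest difference of the members, with a lowest, median and highest value of 12.8, 14.5 and 16.6 rpbp in light and 9.68, 12.7 and 15.8 rpbp in dark. The groups overlapped, and the difference was 0.19 ± 0.11 (SE) on the log2 scale (exact permutation p = 0.110, adjusted p = 0.508). Cdh5 had 21.7, 26.8 and 30.0 rpbp in light and 21.8, 24.0 and 26.0 rpbp in dark, a difference of 0.13 ± 0.08 (exact permutation p = 0.104, adjusted p = 0.496). Single samples moved both values. The Pecam1 difference was 0.12 without series 2 at ZT14 (exact permutation p = 0.216) and 0.25 without series 2 at ZT18 (exact permutation p = 0.0260), and the Cdh5 difference ran from 0.09 without series 1 at ZT2 (exact permutation p = 0.197) to 0.18 without series 2 at ZT10 (exact permutation p = 0.00649). The adjusted p over these fits was 0.256 or more. For the other 7 members the difference was between -0.05 (Eng) and 0.10 (Tie1).

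The 2 series gave the same levels within their spread. With time point in the model, the difference of series 2 minus series 1 ranged from -0.10 (Tie1) to 0.09 (Stab1) on the log2 scale, with 95% limits within -0.30 and 0.26. None of the 9 members passed (limma, adjusted p of 0.993 or more), the background being 0% of genes with 426 genes at an unadjusted p under 0.05 and no member among them. Tie1, for instance, had 9.65 ± 1.17 rpbp in series 1 and 8.99 ± 1.81 rpbp in series 2 (SD, n = 6 each).

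It was then asked whether the members rose and fell together from sample to sample. Over the 36 pairs, Pearson's r of log2(rpbp + 1) over the 12 samples had a median of 0.262, against 0.0210 over all pairs of expressed genes, and 28 of 36 pairs were positive, against 51.9% of all pairs. Of the 36, 9 (25%) had r above 0.5, against 10.6% of all pairs. At an unadjusted permutation p under 0.05 there were 6 pairs, and 0 passed after adjustment over 36 pairs for r or for Spearman's rho.

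These 6 pairs were all those among Stab1, Stab2, Kdr and Tek. The closest was Stab1 with Tek, with r = 0.74 (permutation p = 0.00673, adjusted p = 0.0782) and rho = 0.65 (permutation p = 0.0267, adjusted p = 0.163). Without the 2 samples farthest from the median of Stab1, r was 0.55, and within series 1 and series 2 it was 0.51 and 0.91. Stab2 with Tek also had r = 0.74 (permutation p = 0.00675, adjusted p = 0.0782) and rho = 0.67 (permutation p = 0.0186, adjusted p = 0.163), with r = 0.69 without the 2 farthest samples. Kdr with Tek had r = 0.71 (permutation p = 0.00976, adjusted p = 0.0782) and rho = 0.70, and r was 0.70 and 0.78 within the 2 series. The other 3 pairs had r from 0.67 to 0.72 with adjusted p from 0.0782 to 0.103. These genes thus come from both the scavenger receptor and the receptor kinase groups. All values of a sample come from 1 library and share its scaling.

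Clec4g, the most abundant member, had the lowest correlations with the others. Its median r with the other 8 members was -0.03, and its r with their mean was 0.04. It had r = -0.25 with Stab1 and r = -0.29 with Stab2, and these were -0.81 and -0.74 in series 1 but 0.69 and 0.31 in series 2. Kdr was at the other end, with a median r of 0.53 and an r of 0.82 with the mean of the other 8. The r with the mean of the others was 0.68 for Tek, 0.62 for Stab2 and 0.56 for Stab1, and between 0.21 and 0.38 for Eng, Cdh5, Tie1 and Pecam1.

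**Figure D5:**
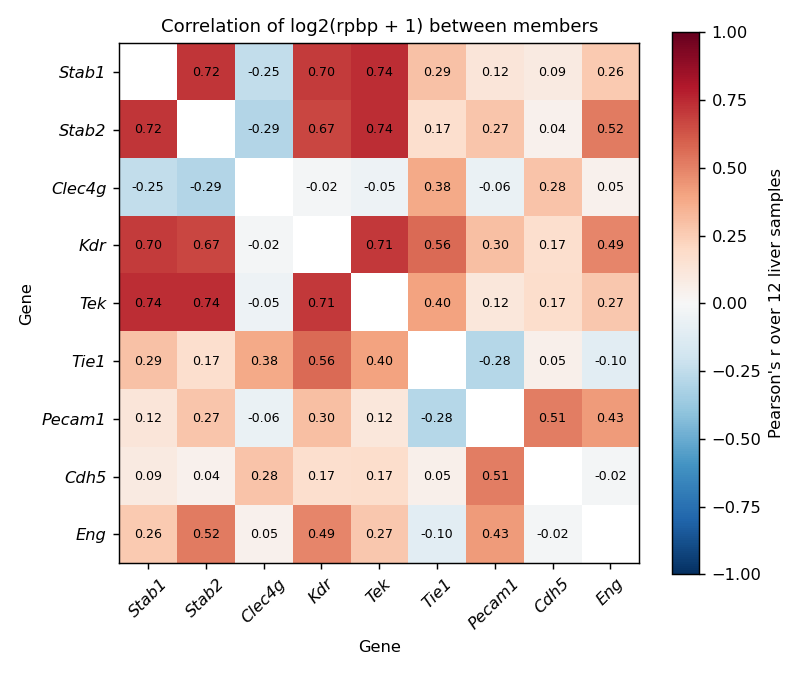
Pearson's r over the 12 liver samples between each pair of members, as log2(rpbp + 1). The 6 pairs among Stab1, Stab2, Kdr and Tek lie between 0.67 and 0.74, whereas the row of Clec4g runs from -0.29 to 0.38.

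Among 8944 other expressed genes with a mean of at least 8 rpbp, the 8 with the profile most like the mean of the members over the 12 samples were taken. The closest was the transcript AK045413 (r = 0.91, rho = 0.89). The second was Dnase1l3, a secreted DNase that is also in the list of sinusoidal endothelial markers (r = 0.89, rho = 0.89). Dnase1l3 had 43.7 and 45.4 rpbp in the 2 ZT22 samples, the lowest of its 12 values, and 58.3 and 56.8 rpbp at ZT6, with a highest value of 59.8 rpbp in series 2 at ZT18. The others were Ctdsp2 (r = 0.89), DQ716436 (r = 0.86), 9030612M13Rik (r = 0.86), Snrpd2 (r = 0.85), AK204443 (r = 0.83) and Ppm1k (r = 0.83). These r are the highest of 8944 and are given as descriptions with no test.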

How the data were processed

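Poly(A) RNA of 12 mouse liver samples was sequenced by the authors with the Illumina TruSeq kit. Per the labels and the study's methods, they mapped the sequences to mm9 with TopHat, kept unique matches, joined the exons of all isoforms of each UCSC gene and divided the unstranded coverage by exon length. The signal they deposited, a mean coverage in rpbp, had been scaled by the authors to 10000000 uniquely mapped sequences per sample and was multiplied by 4 here, to 40000000. As the signal is no count of reads, no counting interval was given. The summed signal of all genes ran from 1487469 to 1546116 rpbp per sample. The deposited columns of F24, phase and p are the authors' own comparisons and were not used. Columns headed ZT20 were taken as ZT22, the time in the sample labels.

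F24, its exact p over 623700 distinct orders, the light-dark splits and sign flips (4096) were computed in Python 3.11.15 with numpy 2.4.6, correlations with 100000 permutations, and F-tests and series differences with limma 3.58.1 in R 4.3.3 on log2(rpbp + 1). p-values were adjusted by Benjamini-Hochberg over all 10198 expressed genes, over 8 neighbour pairs or over 36 pairs. Rhythm and F-test scripts were tested on simulated data. Members and gene lists were chosen with earlier results of these data known. By rule, all members, for each list up to 4 genes (the 2 highest means and the 2 highest F24) and the 8 most similar genes were named. Further genes of the lists (called genes, ligands, genes under the expression minimum, genes of other cell types) were named after their values were seen. A gene that this rule selects is not reported here. Not found were Gpr182, S1pr1, Epcam, Pf4, Hba-a1 and Ly6g. Alternatives covered scaling, pseudocount, expression minimum, test, series and single samples.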

Additional observations from a re-analysis of the deposited data

How the results depend on the processing

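The count of rhythmic members, 1, was 0 with an expression minimum of 16 rpbp (which leaves Tie1 out), with adjusted p-values, with a limma cosine fit, and with the amplitude from time point means. It ran from 0 to 1 with series 1, series 2 or single samples left out, and was 0 in 9 of the 12 fits without 1 sample. The count of members that differed between time points, 0, was 1 (Kdr) with a minimum of 16 rpbp. The count of neighbour pairs that differed in level, 5, was 0 in series 1 alone and 0 in series 2 alone, where 6 samples allow no smaller p than 0.03125 before adjustment. The Cdh5 to Kdr difference was -0.000129 and the Tie1 to Tek difference -0.0840 (log2) in series 2 alone.

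Differences near 0 changed sign. Light minus dark was -0.0121 for Tek with median-of-ratios size factors, and with each sample left out ran from -0.0555 to 0.0429 for Stab1, from -0.0307 to 0.0215 for Stab2, from -0.0852 to 0.00633 for Clec4g and from -0.0259 to 0.0638 for Tek. Series 2 minus series 1 ran from -0.0209 to 0.110 for Pecam1, from -0.0447 to 0.00454 for Eng, from -0.00228 to 0.0344 for Stab2 and from -0.00270 to 0.0953 for Tek. None of these was past the threshold in any fit. The cause was not tested.

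The sample numbers did not pair the samples: over 15 pairs of time points, the deviations of same-numbered samples correlated between -0.153 and 0.206, with 2 above 0.1. With a replicate block the counts were 1 rhythmic member and 0 members past the F-test, the light-dark test or the correlation test, as without it. The signal holds no counts of reads, so that no counting error can be given for a value, and differences as small as the spread between the 2 samples of a time point could not be told from no difference.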
